A study of Mus musculus with 3 samples.

Results

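Chromatin accessibility was described at 10 genes that mark the dermal cells around the hair follicle: the fibroblast genes Pdgfra, Pdgfrb, Twist2, Lum, Dcn and Dpt, and the endothelial genes Pecam1, Cdh5, Kdr and Tek. They are 10 of 21851 protein-coding genes of the GRCm38 annotation (GENCODE M21) and were picked as markers of their cell types, to check for other cells in libraries of sorted hair follicle stem cells (HFSCs). The cells came from dorsal skin of mice aged 6 months with resting (telogen) follicles, and were sorted as CD34+ CD49f+ Sca-1-. One library was from wild-type mice (labelled Msx2-WT, here WT) and 2 were from mice lacking the homeobox factor Msx2 (labelled Msx2-KO, here KO replicates 1 and 2), all untreated. Per the study's methods, the Msx2-KO allele is a germline targeted allele with a pMC1-neo cassette inserted before exon 2, carried on both chromosomes in every cell, and the WT mice were bought C57BL/6J animals in the same hair cycle phase. The strain of the Msx2-KO mice is not named in the sources used here, and strain matching is stated there for skin histology. The start site of Msx2 stays in that allele, so a peak there does not check the genotype labels. How many mice went into each library is not given in the sources used here.

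Fibroblasts build the dermis. PDGFRα and PDGFRβ are receptor tyrosine kinases for platelet-derived growth factors, PDGFRα being a general marker of skin fibroblasts and PDGFRβ one that pericytes share. TWIST2 is a basic helix-loop-helix factor of the dermal lineage, and lumican (Lum), decorin (Dcn) and dermatopontin (Dpt) are small matrix proteins that bind collagen fibrils. Endothelial cells line the vessels that run past the bulge: PECAM1 and VE-cadherin (Cdh5) hold them together at their junctions, while KDR, also called VEGFR2, and TEK, also called TIE2, are their receptors for vascular endothelial growth factors and angiopoietins. Endothelial cells can carry both CD34 and CD49f, on which the cells were gated, but many also carry Sca-1, which the gate removed. In ATAC-seq the transposase Tn5 cuts open chromatin, so an active promoter or enhancer appears as a pile of read ends with a summit. In sorted bulk material, few cells with a fully open site and many cells with a partly open site cannot be told apart.

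The authors deposited 1 list of called peaks per library. A summit was counted as a peak when its −log10 q was above 2.0, the authors' stated q-value limit of 0.01. The lists also hold weaker summits down to a p-value of 0.01, which are called listed summits here. The number of tags (read ends extended by the peak caller) at each summit was worked back from the deposited values. The library background was 1.738 tags in WT, 0.476 in KO replicate 1 and 0.79 in KO replicate 2, so WT was 3.65 times and KO replicate 2 1.66 times as deep as the shallowest library. A peak needed at least 9 tags in WT, 5 in KO replicate 1 and 6 in KO replicate 2. Promoters with a peak had a median of 13.8 times the background in WT, compared with 27.3 and 26.6 times in the KO libraries, where a lower ratio sufficed for a call in the deeper WT library. Over the 7691 promoters open in all 3 libraries the medians were 16.7, 27.3 and 36.7 times, again lowest in WT. The labels give WT a different batch date from the KO libraries, which share theirs, and batch and genotype cannot be told apart. Genotypes could not be tested against each other with 1 WT library, and intervals given below are exact 95% Poisson intervals that cover counting error only.

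The summits with the most tags were in regions of Tek and Pecam1 away from their start sites, and 3 reference windows of 300 bases, these and the Tek promoter, are shown first, on the plus strand of GRCm38. The Tek distal region (chr4:94725826-94726125) lies outside the gene and before its start. It had a peak in every library, and capitals mark its single match to the AP-1 motif TGANTCA. The Tek promoter region (chr4:94738271-94738570) is centred on the middle one of the 3 promoter summits and ends just short of that of KO replicate 2, and it held none of the 7 motifs searched. The Pecam1 intronic region (chr11:106674700-106674999) lies in intron 14 of Pecam1-201, and capitals mark its 2 matches to the E-box CAGCTG.

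Tek distal region: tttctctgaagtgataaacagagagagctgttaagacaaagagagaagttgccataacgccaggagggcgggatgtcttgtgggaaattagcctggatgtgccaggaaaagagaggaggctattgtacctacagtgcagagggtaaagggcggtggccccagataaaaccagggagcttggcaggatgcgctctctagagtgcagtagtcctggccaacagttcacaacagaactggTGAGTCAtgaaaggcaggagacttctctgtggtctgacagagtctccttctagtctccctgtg
Tek promoter region: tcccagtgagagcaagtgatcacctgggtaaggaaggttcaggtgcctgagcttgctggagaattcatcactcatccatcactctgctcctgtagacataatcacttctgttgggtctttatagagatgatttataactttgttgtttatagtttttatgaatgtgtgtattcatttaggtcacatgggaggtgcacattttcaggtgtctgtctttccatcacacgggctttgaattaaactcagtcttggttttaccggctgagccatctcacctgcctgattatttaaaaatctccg
Pecam1 intronic region: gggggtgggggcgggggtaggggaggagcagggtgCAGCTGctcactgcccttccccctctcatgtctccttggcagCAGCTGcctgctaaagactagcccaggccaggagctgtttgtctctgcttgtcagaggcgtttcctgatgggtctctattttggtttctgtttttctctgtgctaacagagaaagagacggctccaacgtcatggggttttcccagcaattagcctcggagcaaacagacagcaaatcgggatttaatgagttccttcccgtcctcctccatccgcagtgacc

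The AP-1 motif was present in 20.6% of windows of the same length around distal peaks of WT, 17.3% in KO replicate 1 and 18.7% in KO replicate 2. The E-box CAGCTG was present in 19.5%, 17.6% and 18.2% of them. The shares were alike in the 3 libraries, and a match describes letters only. The other motifs searched on both strands were CAGGAAG for ETS factors, AGATAAG for GATA factors, CATTGTT for SOX factors, TGTGGTT for RUNX factors and GGAATGT for TEAD factors, and none of these was found in the 3 windows. The Pecam1 intronic window was 56.0% G+C and held 8 CpG, the Tek distal window was 51.0% with 4 CpG, and the Tek promoter window was 42.0% with 3 CpG. The median over distal peaks was 49.7%, 48.3% and 48.0% G+C in the 3 libraries.

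At their promoters, taken as 1500 bases on either side of every start site of a protein-coding transcript, few of the 10 genes were open. In WT 1 of 10 had a promoter peak (Pdgfra), compared with 47.1% of all genes. In KO replicate 1 it was also 1 of 10 (Tek), compared with 37.9% of all genes. In KO replicate 2 it was 3 of 10 (Pdgfra, Kdr and Tek), compared with 53.7%. The other 7, namely Pdgfrb, Twist2, Lum, Dcn, Dpt, Pecam1 and Cdh5, had no promoter peak in any library, a state shared by 43.8% of all genes. No gene of the 10 had one in all 3 libraries, which 35.2% of all genes did.

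**Figure D1:**
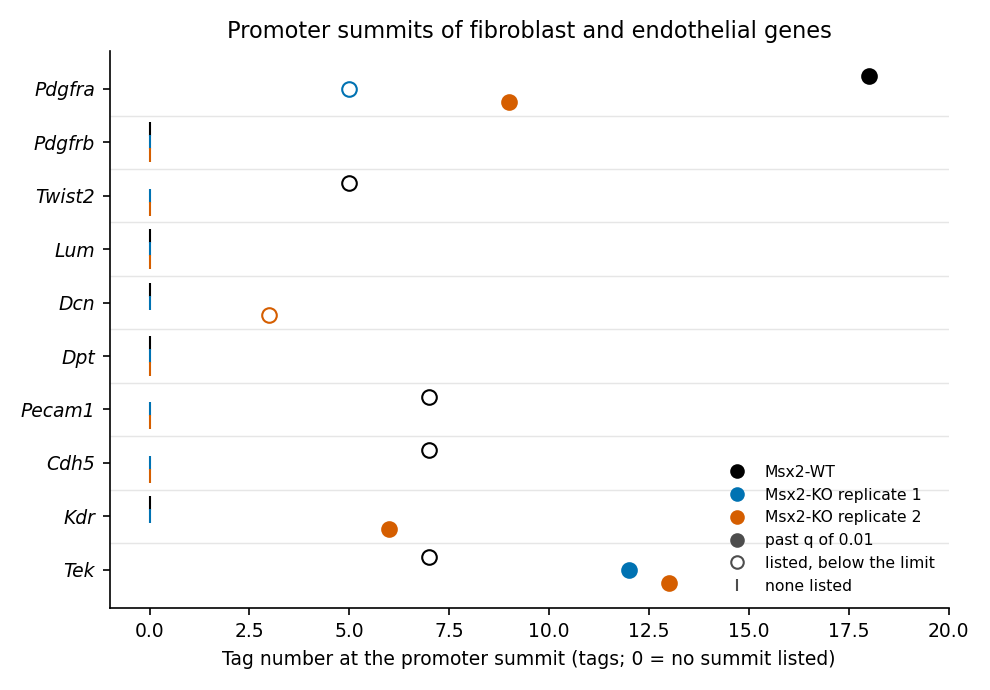
Tag number at the promoter summit of each of the 10 genes in the 3 libraries, filled where the summit passed a q-value of 0.01, open where it was listed below that limit, and a tick at 0 where no summit was listed. Filled points appear for Pdgfra, Kdr and Tek alone, from 6 tags (Kdr, KO replicate 2) to 18 tags (Pdgfra, WT), and tag numbers are not adjusted for depth.

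Across the whole gene, from 20 kb before the start to the gene's end, the picture was sparser than for genes in general but not empty. Of the 10 genes, 3 had a peak in this window in WT (Pdgfra, Pecam1 and Tek) compared with 64.3% of all genes, 1 in KO replicate 1 (Tek) compared with 52.6%, and 5 in KO replicate 2 (Pdgfra, Dpt, Pecam1, Kdr and Tek) compared with 69.0%. The windows covered 726.8 kb and held 10, 3 and 12 peaks, which is 1.38, 0.413 and 1.65 per 100 kb, compared with 2.24, 1.28 and 2.52 over the pooled windows of all genes. Genes with a peak were not all sparse. In WT the densities of Pdgfra, Pecam1 and Tek were above 75.5%, 73.3% and 42.2% of all genes, and in KO replicate 1 that of Tek was above 63.3%. In KO replicate 2 those of Pdgfra, Pecam1, Tek, Dpt and Kdr were above 73.5%, 51.3%, 51.2%, 45.7% and 39.0%. Listed summits of any strength fell in the windows of 10, 3 and 6 of the 10 genes, compared with 85.8%, 64.5% and 82.6% of all genes. The 4 endothelial genes held 7, 3 and 8 of the peaks and the 6 fibroblast genes 3, 0 and 4. Long windows hold peaks more often. Of all genes in the same length class as Pdgfra, Pdgfrb, Twist2, Dcn, Dpt, Cdh5 and Kdr (45.07 to 78.11 kb), 74.7%, 61.8% and 79.5% had one, and of these 7 genes 1, 0 and 3 did. In the longest class, which held Pecam1 and Tek, 79.4%, 70.1% and 86.5% had one, and of these 2 genes 2, 1 and 2 did. Lum, with a window of 27.58 kb, had none, where 54.4%, 41.5% and 57.2% of genes of its class did.

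Among the fibroblast genes, Pdgfra was the one with peaks near a start. Pdgfra (ENSMUSG00000029231.15, chromosome 5, plus strand, 75152292 to 75198215) has several start sites. They number 4 and span 3607 bases, so peaks in intron 1 fall inside the promoter window of an inner start. In WT it had 3 peaks there, 1883, 4329 and 4961 bases after the outermost start, with 12, 11 and 18 tags (18 tags, interval 10.7 to 28.4). In KO replicate 1 the promoter held 1 listed summit 4016 bases after that start, with 5 tags and a −log10 q of 1.93, just short of the limit. In KO replicate 2 a peak 3964 bases after it had 9 tags, another 947 bases before it had 7 tags, and a more distant one 8905 bases before it, inside the neighbouring gene model Gm19583, had 8 tags. Intron 1 thus held a summit in every library and the outermost start had a peak in KO replicate 2 alone. The strongest promoter summits were weak for their libraries, at 10.4 times the background in WT, above 31.0% of promoters with a peak, and at 11.4 times in KO replicate 2, above 12.2% of them. Over the background the 5 tags of KO replicate 1 came to 10.5 times. The WT summit nearest to those of the KO libraries in intron 1, at 4329 bases, was 6.33 times the background (3.16 to 11.3), an interval that overlapped those of KO replicate 1 (3.41 to 24.5) and KO replicate 2 (5.21 to 21.6).

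Dpt (ENSMUSG00000026574.5, chromosome 1, plus strand, 164796644 to 164824266) had 1 peak, in intron 2 of Dpt-201 in KO replicate 2, where the gene model Gm32569 overlaps. It had 6 tags (interval 2.2 to 13.1) and a −log10 q of 2.46, and 6 tags is the fewest that passed in that library. WT had a listed summit of 8 tags 9625 bases before the start and KO replicate 1 had none listed. Nothing was listed within 1500 bases of the Dpt start in any library.

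The matrix genes Dcn and Lum, neighbours on chromosome 10, were without a peak in all 3 libraries. Dcn (ENSMUSG00000019929.16, plus strand, 97479609 to 97518143) had 3 tags at a listed summit 170 bases before its outermost start in KO replicate 2, 7 tags at one in exon 8 in WT, and nothing listed in KO replicate 1. Lum (ENSMUSG00000036446.5, plus strand, 97565128 to 97572703) had listed summits of 6 and 5 tags before its start in WT and none in either KO library. Twist2 (ENSMUSG00000007805.4, chromosome 1, plus strand, 91801461 to 91848028) had 3 listed summits of 5, 6 and 8 tags in WT and none in the KO libraries. Pdgfrb (ENSMUSG00000024620.11, chromosome 18, plus strand, 61045150 to 61085061) likewise had 3 in WT, of 6, 5 and 7 tags, and none in the KO libraries. These listed summits all stood at or below 8 tags, and WT, the deepest library, held most of them.

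Among the endothelial genes Tek had the clearest signal. Tek is found on chromosome 4 (ENSMUSG00000006386.15, plus strand, 94739289 to 94874976). Its distal region, the first sequence shown above, was the single one of 17 peak regions over the 10 genes with a peak in all 3 libraries. The summits lay at 94725975 in WT, 94725995 in KO replicate 1 and 94725954 in KO replicate 2, within 41 bases of each other and 13314, 13294 and 13335 bases before the start. They had 21 tags (13.0 to 32.1), 12 tags (6.2 to 21.0) and 28 tags (18.6 to 40.5), with −log10 q of 13.2, 6.44 and 19.3. Over the background these were 12.1, 25.2 and 35.4 times, above 77.1%, 71.7% and 91.8% of distal peaks of the same library, so this was a strong site in each. The interval of WT over its background (7.48 to 18.5) overlapped that of KO replicate 1 (13.0 to 44.0) and lay below that of KO replicate 2 (23.6 to 51.2), and the median of distal peaks was lowest in WT, at 8.06 compared with 16.8 and 12.7. Tek was the gene with the nearest annotated protein-coding start.

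At the Tek promoter the libraries differed in their call. WT had a listed summit of 7 tags (2.81 to 14.4) 980 bases before the start with a −log10 q of 1.0, below the limit. KO replicate 1 had a peak of 12 tags (6.2 to 21.0) at 869 bases and KO replicate 2 one of 13 tags (6.92 to 22.2) at 713 bases before it, with −log10 q of 6.72 and 7.18. Tek was the one gene of the 10 with a promoter peak in both KO libraries and not in WT, a state of 2.32% of all genes. This share changed with the setting, and was 11.8% when all libraries were scaled to the shallowest and 3.87% with lists of equal length. The cause of the change was not tested. With windows of 500 bases in place of 1500 it had a promoter peak in none, since every summit lay farther from the start. Over the background the values were 4.03 times in WT (1.62 to 8.3), 25.2 in KO replicate 1 (13.0 to 44.0) and 16.5 in KO replicate 2 (8.76 to 28.1). On this scale the WT interval lay below those of both KO libraries, and promoters in general were also lower over the background in WT. The promoter peaks of the KO libraries were above 44.9% and 26.0% of promoters with a peak.

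Further peaks inside Tek were in fewer libraries. A peak 7225 bases after the start in intron 1 had 12 tags in WT and nothing listed in the KO libraries. One 37588 bases after it, also in intron 1, had 14 tags in KO replicate 2, and KO replicate 1 had 3 tags below the limit close by. A peak in intron 8 had 5 tags in KO replicate 1 (−log10 q 2.32) and 9 tags in KO replicate 2 (−log10 q 5.37), with summits 88169 and 88185 bases after the start, and none was listed in WT. With the promoter, this made 2 regions over all 10 genes with a peak in both KO libraries and not in WT.

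**Figure D2:**
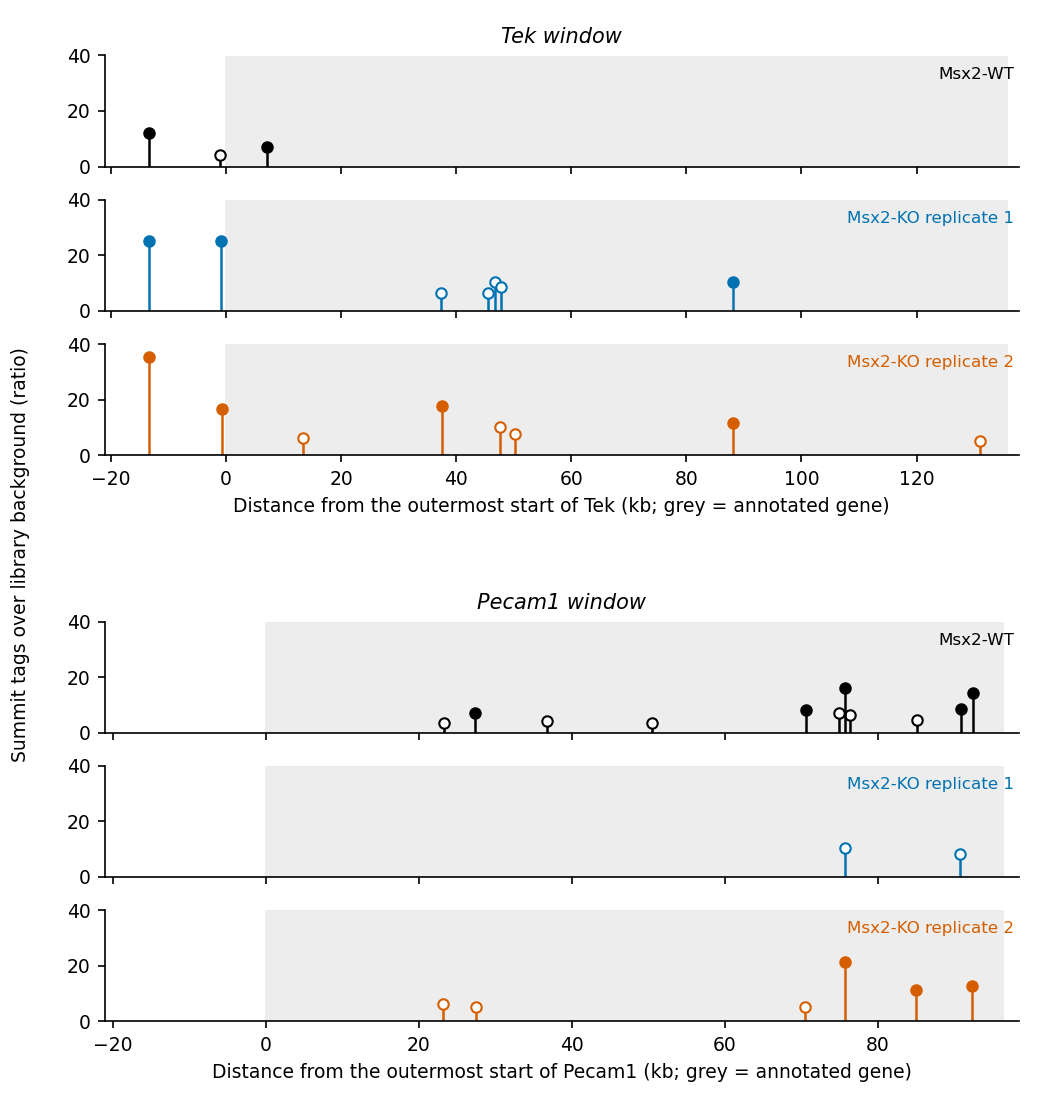
Listed summits over the windows of Tek and Pecam1 in each library, by distance in kb from the outermost start (grey, the annotated gene), with height as tags over the library background (ratio) and filled points for summits past a q-value of 0.01. The Tek summit 13 kb before the start is filled in all 3 libraries, and the Pecam1 summit 76 kb after the start is filled in WT and KO replicate 2 and open in KO replicate 1.

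Pecam1 (ENSMUSG00000020717.19, chromosome 11, minus strand, 106654217 to 106750628) had peaks far inside the gene and none at a start. Its 5 start sites span 35369 bases, and the one summit listed near any of them was that of 7 tags in intron 3 in WT, with a −log10 q of 1.0. In the intron 14 region shown above, summits lay at 106674833, 106674918 and 106674849, within 85 bases of each other. They had 28 tags (18.6 to 40.5) in WT, 5 tags (1.62 to 11.7) in KO replicate 1 and 17 tags (9.9 to 27.2) in KO replicate 2, with −log10 q of 13.1, 1.61 and 7.86. The site was listed in every library and passed the limit in WT and KO replicate 2. Over the background the values were 16.1, 10.5 and 21.5 times, and the summits that passed were above 88.7% and 76.1% of distal peaks.

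A second Pecam1 region, past the 3′ end of Pecam1-201 but inside the annotated gene, had 25 tags in WT (16.2 to 36.9) and 10 in KO replicate 2 (4.8 to 18.4), with nothing listed in KO replicate 1. The nearest protein-coding start to it was that of Tex2, 45246 bases from the WT summit, and which gene the site serves was not tested. The other Pecam1 peaks were in 1 library each. WT had 15 tags beside that region, or 8.63 times its background (4.83 to 14.2). KO replicate 1 had 4 tags below the limit there, or 8.4 times (2.29 to 21.5), an interval too wide to compare the levels. The median distal peak was 8.06 times the background in WT and 16.8 times in KO replicate 1. WT also had peaks of 14 tags in intron 13 and 12 tags in intron 1, or 8.06 and 6.9 times its background, and at both KO replicate 2 had 4 tags below the limit, or 5.06 times. Intron 15 had a peak of 9 tags in KO replicate 2, 11.4 times the background (5.21 to 21.6), where WT had 8 tags below its limit, 4.6 times the background (1.99 to 9.07).

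Kdr and Cdh5, both markers of all blood vessels, had 1 weak peak between them. Kdr (ENSMUSG00000062960.10, chromosome 5, minus strand, 75932827 to 75978458) had 6 tags (2.2 to 13.1) 61 bases before its start in KO replicate 2, with a −log10 q of 2.46. No promoter peak in that library had fewer tags. WT and KO replicate 1 had no summit listed at the Kdr start, the nearest in WT being one of 6 tags 17890 bases before it. Cdh5 (ENSMUSG00000031871.9, chromosome 8, plus strand, 104101625 to 104144511) had 4 listed summits in WT, one of them of 7 tags 154 bases after its start, where the gene model Gm29682 overlaps. No Cdh5 summit was listed in either KO library, where a site with fewer than 3 tags was not detectable at this depth.

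Promoters rich in CpG are open in many cell types, so the closed promoters were set beside promoters of like CpG number. Within 500 bases of the outermost start, Lum had 7 CpG and Dcn 10, Dpt and Pecam1 16 each, Cdh5 and Pdgfra 18 each, Tek 19, Pdgfrb 31, Kdr 61 and Twist2 90. All genes were split into 5 classes of equal size by this number, and 7 of the 10 genes were in the lower 2 classes. For Pdgfra these 500 bases did not reach the inner starts near its WT peaks. In the lowest class (0 to 9 CpG) 6.82%, 4.77% and 8.06% of genes had a promoter peak in WT and KO replicates 1 and 2, and in the next (10 to 26 CpG) 22.5%, 16.3% and 27.0% did. A closed promoter was thus the commoner state at such CpG numbers in every library. Pdgfrb was in the middle class (27 to 53 CpG), where 56.0%, 41.6% and 65.1% had one. Kdr and Twist2 were in classes where most genes were open. In the class of Kdr (54 to 75 CpG) 75.1%, 61.3% and 83.4% of genes had a promoter peak, and in that of Twist2 (76 to 172 CpG) 77.3%, 67.4% and 87.0%.

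The RefSeq promoters of these 2 genes (GRCm38.p6, 250 bases before to 50 after the start, each written in the direction of its gene) are shown with every CpG in capitals. That of Kdr is chr5:75978406-75978705 on the minus strand and that of Twist2 is chr1:91801211-91801510 on the plus strand.

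Kdr promoter: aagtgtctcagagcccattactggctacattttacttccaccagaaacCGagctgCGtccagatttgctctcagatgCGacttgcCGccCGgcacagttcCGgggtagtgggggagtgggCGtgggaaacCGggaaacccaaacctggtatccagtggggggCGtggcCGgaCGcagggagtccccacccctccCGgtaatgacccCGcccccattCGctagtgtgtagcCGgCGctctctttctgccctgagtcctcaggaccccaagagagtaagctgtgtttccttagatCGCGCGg
Twist2 promoter: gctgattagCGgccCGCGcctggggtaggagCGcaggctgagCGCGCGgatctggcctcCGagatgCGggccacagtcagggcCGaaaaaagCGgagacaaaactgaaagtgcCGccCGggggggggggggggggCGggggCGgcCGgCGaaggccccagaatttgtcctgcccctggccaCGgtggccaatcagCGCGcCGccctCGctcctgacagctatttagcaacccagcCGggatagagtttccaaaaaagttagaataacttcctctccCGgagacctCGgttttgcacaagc

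The Kdr window held 19 CpG, more than 71.9% of 32851 RefSeq promoters, and the Twist2 window held 25, more than 81.6%. The weak Kdr summit of KO replicate 2 falls inside the printed Kdr window. No summit was listed inside the printed Twist2 window in any library, and none of the 7 motifs was found in either.

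**Figure D3:**
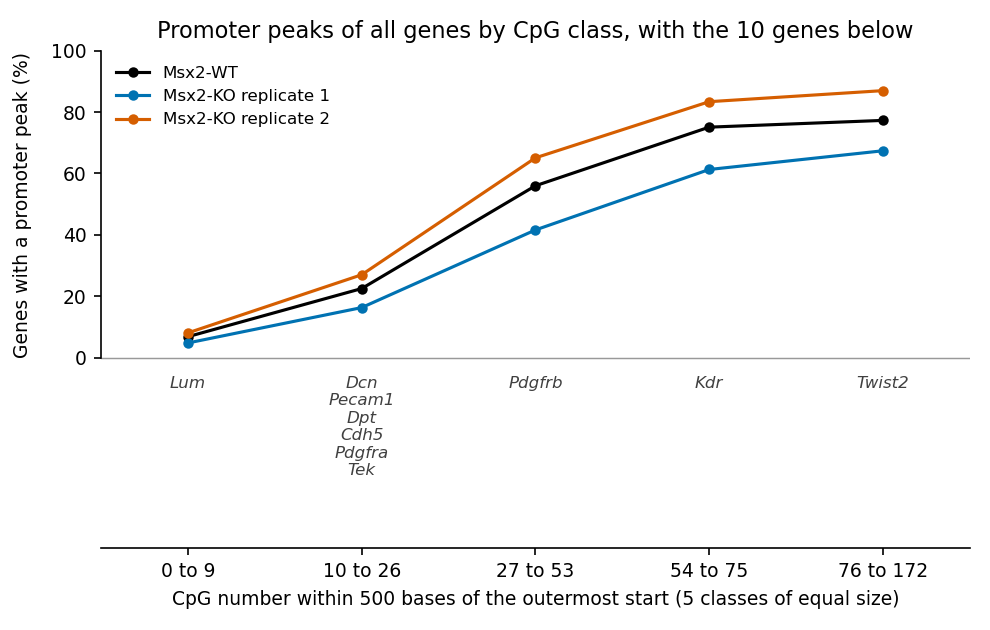
Share of all protein-coding genes (%) with a promoter peak in each library, in 5 classes of equal size by the CpG number within 500 bases of the outermost start, with the 10 genes written under their class. The share rises from 4.77 to 8.06% in the lowest class to 67.4 to 87.0% in the highest, and 7 of the 10 genes are in the lower 2 classes, with Kdr and Twist2 in the upper 2.

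The sorted cell type was checked in the same way. Of 16 genes of HFSCs and basal keratinocytes, 14 had a promoter peak in WT, 10 in KO replicate 1 and 15 in KO replicate 2. Of all genes 47.1%, 37.9% and 53.7% did. The list was chosen with earlier results of these data known. It includes Cd34 and Itga6, the genes of CD34 and CD49f, which the sort itself selected for. The basal keratin gene Krt5 had 34, 11 and 23 tags at its promoter and its partner Krt14 had 17, 9 and 20. The bulge keratin gene Krt15 had 27 and 23 tags in WT and KO replicate 2 and no promoter peak in KO replicate 1. Nfatc1, a factor of quiescent bulge cells, had none in any library. Lgr5 (named after its values were seen) had a promoter peak in both KO libraries, of 6 and 19 tags, and not in WT, which is also the state of Tek. With every deposited summit, 16, 11 and 16 genes of this list had a promoter summit, where 58.8%, 45.3% and 61.9% of all genes did. WT thus had summits below the limit at Lgr5 and Nfatc1, and KO replicate 2 had one at Nfatc1. Of the 6 genes of this list in the lower 2 CpG classes, 6, 3 and 6 had a promoter peak, whereas of the 7 fibroblast and endothelial genes in those classes 1, 1 and 2 had one. Itga6, open in all 3 libraries, was 1 of the 6 genes of the HFSC and basal keratinocyte list. The class rests on the outermost start, and Pdgfra, counted here in WT and KO replicate 2, had its WT peaks near inner starts. A window of 300 bases at the intron 1 summits of the KO libraries was 68.0% G+C with 26 CpG, and no WT summit lay inside it. One centred on the WT peak 1883 bases after the outermost start was 60.7% G+C with 10 CpG.

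Further genes of both dermal cell types mostly lacked a promoter peak, but less so a peak in the wider window. Of 18 further fibroblast genes, 1 had a promoter peak in WT, 0 in KO replicate 1 and 5 in KO replicate 2. Of 18 further endothelial genes the numbers were 0, 0 and 3, compared with 47.1%, 37.9% and 53.7% of all genes. In the gene window 7, 4 and 13 of the further fibroblast genes and 7, 4 and 10 of the further endothelial genes had a peak. Of all genes 64.3%, 52.6% and 69.0% did, so the further fibroblast genes were not below that share in KO replicate 2. The density in KO replicate 2 was 2.8 and 1.42 peaks per 100 kb, compared with 2.52 over all genes. None of these genes had a promoter peak in all 3 libraries or a promoter state that set WT apart from both KO libraries. The genes behind the counts of KO replicate 2 (named after their values were seen) were Thy1 with 10 tags, Prrx1 and Crabp1 with 7 each, Fbln2 and Dpp4 with 6 each, Cldn5 with 7, and Egfl7 and Sox18 with 6 each, and Fbln2 had 9 tags in WT. With a −log10 q of at least 5 none of the 36 further genes had a promoter peak in any library, where 39.0%, 25.5% and 44.2% of all genes did. The tag numbers of the named further genes in KO replicate 2, from 6 to 10, thus lay close to the 6 tags that a peak needed there, as did those of Dpt and Kdr, at 6 tags each.

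Other lists give the range of such counts, beside promoter peaks at 47.1%, 37.9% and 53.7% of all genes. Of 10 mural genes, which mark pericytes and vascular smooth muscle, and of 11 leukocyte genes, 0 had a promoter peak in any library. With every deposited summit, 5, 1 and 5 mural genes and 1, 0 and 1 leukocyte genes had a promoter summit. Of all genes 58.8%, 45.3% and 61.9% did. With promoter windows of 3000 bases, 1 mural gene had a peak in KO replicate 2, where 56.0% of all genes did. In the gene window 6, 5 and 8 mural genes and 5, 4 and 4 leukocyte genes had a peak, compared with 64.3%, 52.6% and 69.0% of all genes. Of 12 genes of organs outside the skin, 2, 0 and 2 had one, namely Apoa1 (9 tags in WT and 6 in KO replicate 2), Sftpc (11 in WT) and Ttr (10 in KO replicate 2). In KO replicate 2 the promoter peaks of Kdr (6 tags) and Pdgfra (9 tags) were thus within the range of these genes, and that of Tek (13 tags) was above it. In WT the Pdgfra promoter peak (18 tags) was above it as well. Of 10 melanocyte genes 3, 2 and 3 had a promoter peak, with Dct and Pmel open in all 3 libraries and Mitf in WT and KO replicate 2 (named after their values were seen). The other 7, namely Ednrb, Kit, Mlana, Slc45a2, Sox10, Tyr and Tyrp1, had none in any library. By the definition used, a promoter peak can also lie near the start of a neighbouring gene. The share of other cells in the libraries was not tested.

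**Figure D4:**
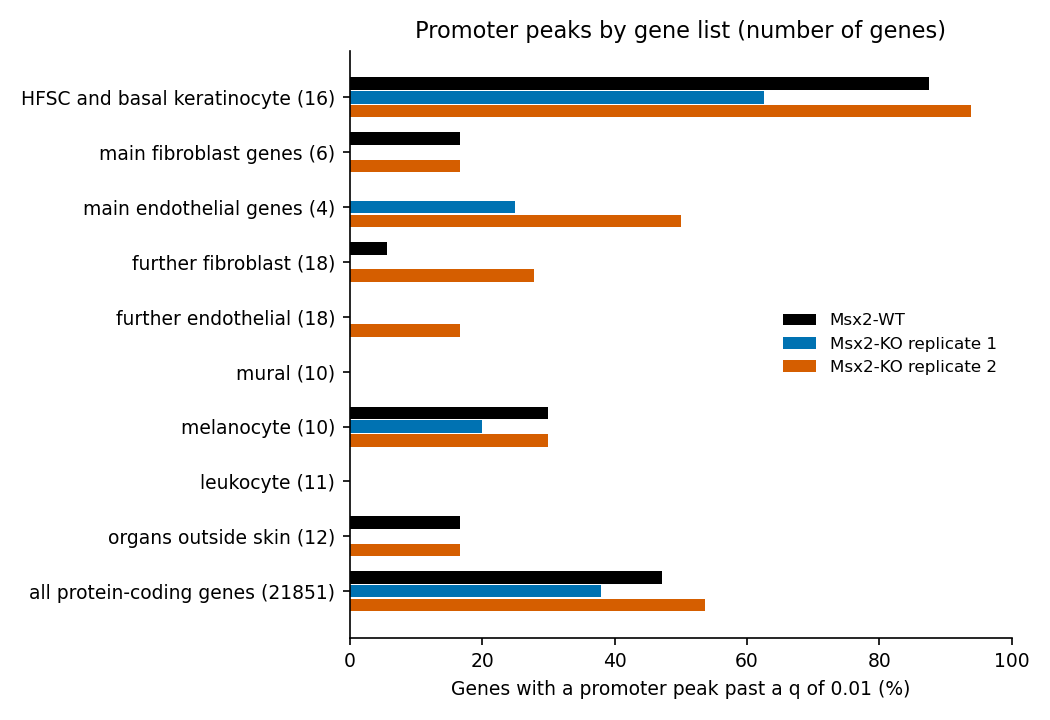
Share of genes (%) with a promoter peak past a q-value of 0.01 in each gene list and library, with the number of genes in brackets and the 10 genes as the main fibroblast and endothelial genes. The HFSC and basal keratinocyte list has 14, 10 and 15 of 16 genes open, the mural and leukocyte lists have none, and the fibroblast and endothelial lists lie below the bars of all protein-coding genes in every library.

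By genotype, the promoter state of the 10 genes gave 1 gene in both KO libraries and not in WT (Tek) and 0 in WT alone, where 2.11% of all genes were. The spread between the KO libraries was as wide, since Pdgfra was open in WT and KO replicate 2 alone (9.64% of all genes) and Kdr in KO replicate 2 alone (6.5%). No gene of the 10 was open in KO replicate 1 alone (0.243% of all genes) or in WT and KO replicate 1 alone (0.137%). Over the 17 peak regions of the 10 genes, 5 were in WT only and 6 in KO replicate 2 only, compared with 18.7% and 28.0% of all 47518 peak regions. There were 3 in WT and KO replicate 2 alone (14.5% of all regions), 2 in both KO libraries alone (7.67%) and 1 in all 3 libraries (27.6%). None was in KO replicate 1 only (2.85%) or in WT and KO replicate 1 alone (0.713%). KO replicate 1, the shallowest, shared each of its 3 with KO replicate 2. When every deposited summit was counted, the WT promoter summit of Tek entered and no gene was left in both KO libraries alone.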

How the data were processed

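Omni-ATAC-seq was performed on sorted HFSCs of Msx2-WT (WT, n = 1) and Msx2-KO (KO, n = 2) mice, and 1 peak list per library was used. Reads had been trimmed by the authors (Trimmomatic 0.30) and mapped to GRCm38 by BWA, and MACS2 was run on each library with duplicate reads kept and mitochondrial reads excluded. The deposited score column repeats the −log10 p and was not used. The deposited columns used were the fold ratio over local background, the −log10 p and the −log10 q at each summit. Listed summits reached down to a p-value of 0.01, so the authors' stated q-value limit of 0.01 was applied here. Duplicate reads raise tag numbers. Peak names inside the KO lists carry the tag cKO, and those of replicate 1 another library number. The labels were followed. All lists were peaks per library, not pooled.

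Whole tag numbers were solved from the ratio and −log10 p (tolerance 0.0005 in −log10 p, wider at high values) for 99.94% to 99.97% of summits, and the commonest local background was taken as the library background. Summits past the limit numbered 33654, 19450 and 41091 in WT and KO replicates 1 and 2. Start sites came from protein-coding transcripts of the basic GENCODE M21 set on chromosomes 1 to 19, X and Y. Distal peaks were those outside every promoter window. RefSeq promoters were matched for 5 of the 10 genes. Scripts ran in Python 3.11.15 with scipy 1.17.1 and were tested on simulated data. All 10 genes were named whatever their values. Of the further fibroblast, further endothelial and mural lists, genes open in all libraries or differing by genotype were to be named. From the remaining lists, Krt5, Krt14, Krt15, keratinocyte genes closed in every library and open genes of other organs were to be named. The genes and lists were chosen with earlier results of these data known. Trdc was not found in the annotation used. No test was run, and counts were set beside those of all genes. Alternatives changed the q-value limit, the list length, the depth, the windows and the libraries used.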

Additional observations from a re-analysis of the deposited data

How the results depend on the processing

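Few of the 10 genes had a promoter peak under most settings. Of 86 recomputed values 52 equalled the main count or stayed within a fixed ratio of it, and 34 moved. Any change to or from 0 was called moved, and the ratio measures no spread in the data. Pdgfrb, Lum and Dpt had no promoter summit in any library under any setting. Counts below are in the order WT, KO replicate 1 and KO replicate 2. With every deposited summit, 5, 2 and 4 genes had a promoter summit (58.8%, 45.3% and 61.9% of all genes) and 10, 3 and 6 one in the gene window, the windows held 35, 10 and 24 summits, and 0 genes were in both KO libraries and not in WT and 3 in WT alone (Cdh5, Pecam1 and Twist2), states of 1.84% and 5.38% of all genes. With a −log10 q of at least 5, KO replicate 2 had a promoter peak at 1 gene (Tek) and a window peak at 2, the windows held 5 peaks in WT and 7 in KO replicate 2, and 1 gene (Pdgfra) was in WT alone. With lists of equal length these values were 1, 2, 5, 4 and 1. Scaled to the shallowest library, WT had a promoter peak at 0 genes and KO replicate 2 at 1 (Tek), compared with 27.2% and 44.8% of all genes. KO replicate 2 had a window peak at 2 genes (59.2% of all genes), and the windows of WT and KO replicate 2 held 3 and 7 peaks. The HFSC and basal keratinocyte list had 5, 10 and 14 of its 16 promoters open under this setting, so it also fell in WT. With a −log10 q of at least 5 that list had 11, 3 and 14, compared with 39.0%, 25.5% and 44.2% of all genes. With promoters of 500 bases on either side, WT and KO replicate 1 had 0 genes, compared with 44.3% and 35.4% of all genes. In both KO libraries alone there were 0 genes under this setting (2.17% of all genes). With the outermost start alone, WT had 0, compared with 44.7% of all genes. With windows from 50 kb before the gene, 5 genes in WT and 3 in KO replicate 1 had a peak, compared with 72.1% and 62.0% of all genes. These windows held 19 and 7 peaks. Without a KO replicate, 1 to 2 genes were open in the remaining KO library and not in WT (Kdr and Tek without replicate 1, 8.81% of all genes), and 0 to 1 were in WT alone (Pdgfra without replicate 2, 11.8% of all genes). The cause of these moves was not tested, apart from the fewer or more summits that each setting admits.

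No paired analysis was possible because WT has 1 library and the counts come from no test.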
